A study of Mus musculus with 8 samples.

Results

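The cells described here are Cd8 T cells of mouse bone marrow that carried transcripts of both Pdcd1 and Lag3. They were selected on raw unique molecular identifiers (UMIs): a barcode on which 200 or more genes were detected, with no more than 15% of its UMIs mitochondrial, at least 1 UMI of Cd3d, Cd3e or Cd3g, at least 1 of Cd8b1 and none of Cd4 was taken as a Cd8 cell, and a Cd8 cell with at least 1 UMI of Pdcd1 and at least 1 of Lag3 was taken as double-positive. Of 56649 barcodes, 55850 passed the limits on genes and mitochondrial UMIs, 25898 of these were Cd8 cells, and 2547 Cd8 cells were double-positive. The levels of Pdcd1 and Lag3 in them are therefore a consequence of the selection and are not a result. The remaining Cd8 cells were 621 with Pdcd1 only, 1719 with Lag3 only and 21011 double-negative cells with no UMI of either gene.

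The mice were C57BL/6 and all carried the knock-in allele Runx1 Runx1t1/+, a conditional knock-in of the Runx1::Runx1t1 leukemia fusion. The Runx1::Runx1t1 group also carried Mx1-Cre, and the control group, sex-matched littermates, lacked it. All mice received Poly(I:C), which induces the interferon-responsive Mx1 promoter, at 5 mg/kg every other day for 4 injections, and were killed 4 weeks after induction. Each group had 2 pools of 2 mice, called fusion pools 1 and 2 and control pools 1 and 2 below, and each pool gave 1 gene expression and 1 T cell receptor (TCR) library made with 10x 5′ chemistry. T cells were enriched by negative selection and sorted as DAPI- mCherry- CD3+ cells. Since mCherry reports the fusion, the sorted T cells lacked the reporter, and Mx1-Cre acts across the hematopoietic system, not in 1 cell type.

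PD-1, the product of Pdcd1, and LAG-3 are inhibitory receptors that T cells put on their surface after antigen stimulation. When antigen persists, as in chronic infection or cancer, Cd8 T cells can enter a state called exhaustion, with sustained expression of several inhibitory receptors, the transcription factor TOX and reduced cytokine output. Progenitors that express TCF-1, the product of Tcf7, are known to maintain this state and to give rise to terminal cells that express TIM-3, the product of Havcr2.

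The fusion pools held 444 and 2031 double-positive cells and the control pools 41 and 31. The libraries were of similar depth, at 90958101 to 102883449 UMIs, and the summed double-positive cells held 3168117 and 15361555 UMIs in the fusion pools but only 341746 and 252382 in the control pools. 1 UMI therefore equalled 0.316, 0.0651, 2.93 and 3.96 CPM in the double-positive sums of fusion pool 1, fusion pool 2, control pool 1 and control pool 2, the order in which 4 values are given throughout. CPM, counts per 1000000, scales the UMIs of a gene by all UMIs of the summed cells of a class. Double-positive cells were shallower than double-negative cells, with median totals of 6114, 6311, 5686 and 5298 UMIs against 7990, 8302, 6872 and 6988. 2 double-positive barcodes occurred in both fusion libraries, and neither carried the same clonotype in both.

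Havcr2 and Osgin1, the genes besides Pdcd1 and Lag3 by which these cells were labelled exhausted-like, were both far above double-negative cells. Havcr2 (chr11:46454935-46481255, plus strand, GRCm38) measured 78.0, 86.7, 23.4 and 39.6 CPM in double-positive cells and 0.902, 1.66, 0.174 and 0.347 in double-negative cells, and every double-positive value lay above every double-negative one. A UMI of Havcr2 was found in 35.4, 37.7, 14.6 and 22.6% of double-positive cells and in 0.712, 1.19, 0.131 and 0.264% of double-negative cells. After each cell was thinned to 2000 UMIs, these shares were 15.6, 14.0, 5.00 and 10.0% and 0.217, 0.283, 0.0757 and 0.0333%. Osgin1 (chr8:119434124-119446256, plus strand), an oxidative stress-induced growth inhibitor, measured 113, 317, 35.1 and 43.6 CPM against 3.59, 5.82, 2.47 and 3.41. It was detected in 34.7, 70.1, 19.5 and 25.8% of double-positive cells, so it was found in most cells of fusion pool 2 only. Cells with only 1 of the gating genes lay between the classes, with Havcr2 in 9.57, 12.6, 2.53 and 1.16% of Pdcd1-only and 10.2, 16.2, 1.81 and 2.94% of Lag3-only cells.

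Barcodes chosen as other cells differed in the 2 gating genes. They had no Cd3 UMI and at least 2 UMIs in total of Cd79a, Cd79b, Elane, Mpo, Cd34 and Kit. This choice favours B cells, myeloid cells and progenitors and leaves out other barcodes without Cd3. There were 252, 182, 149 and 349 such barcodes, with median totals of 9643, 9724, 9805 and 13830 UMIs. Pdcd1 was found in 0.397, 0, 0 and 0.860% of them and Lag3 in 34.9, 40.7, 6.04 and 24.6%. NK cells and plasmacytoid dendritic cells, which are known to express Lag3 themselves, were not selected for but can be among them. Negative enrichment of T cells and the CD3+ sort were meant to remove cells other than T cells. What these barcodes hold beyond the selecting genes was not tested. In Cd8 cells Pdcd1 was found in 9.66, 31.95, 2.12 and 1.84% and Lag3 in 13.8, 41.0, 3.66 and 3.16%. Lag3 alone was thus about as frequent in Cd8 cells as in these chosen barcodes, or less so. Within Cd8 cells Lag3 was uneven, at 68.0, 89.2, 34.2 and 26.5% of cells with Pdcd1 and 8.02, 18.4, 3.0 and 2.72% of cells without it. Both genes together occurred in 1, 0, 0 and 2 of the chosen barcodes without Cd3.

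Doublets could also place a cell in the gate. The 5% highest Scrublet doublet scores of each library fell on 10.8, 9.60, 12.2 and 3.23% of double-positive cells and on 4.42, 1.84, 6.43 and 6.82% of double-negative cells. A second productive TRB chain, which a single T cell seldom carries, was seen in 4.74, 6.76, 25.0 and 24% of double-positive cells with a paired TCR, against 10.5, 7.496, 11.6 and 11.3% of double-negative cells. The control values rest on 32 and 25 paired cells, and the part of doublets in the control double-positive cells was not tested.

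The TCRs of the largest double-positive clonotypes are shown because most double-positive cells of the fusion pools belonged to expanded clonotypes. A clonotype is defined here by identical nucleotide sequences of the complementarity-determining region 3 (CDR3) in the TRA and in the TRB chain with the most UMIs. The clonotypes of fusion pool 1 with 86 and 61 double-positive cells used TRAV9D-3, TRAJ12, TRBV17 and TRBJ2-5, and TRAV7-4, TRAJ18, TRBV31 and TRBJ2-3. Those of fusion pool 2 with 856 and 115 used TRAV6-6, TRAJ48, TRBV1 and TRBJ2-7, and TRAV12D-3, TRAJ11, TRBV14 and TRBJ2-7, and the largest of control pool 1, with 6 cells, used TRAV5D-4, TRAJ13, TRBV1 and TRBJ2-2. In the GRCm38 build, with GENCODE M21 annotation, TRAV6-6 is a V gene at chr14:53516929-53517366 on the plus strand, TRAJ48 a J segment at chr14:54169808-54169868, TRBV1 a V gene at chr6:40891229-40891885 and TRBJ2-7 a J segment at chr6:41543810-41543856. The CDR3 sequences follow 5′ to 3′ in lower case, and capitals mark bases that extend neither the germline V nor the germline J segment, the D segment included.
Fusion pool 1, 86 cells, TRA: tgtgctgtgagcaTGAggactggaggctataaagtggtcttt
Fusion pool 1, 86 cells, TRB: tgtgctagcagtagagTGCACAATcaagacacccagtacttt
Fusion pool 1, 61 cells, TRA: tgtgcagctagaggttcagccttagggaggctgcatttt
Fusion pool 1, 61 cells, TRB: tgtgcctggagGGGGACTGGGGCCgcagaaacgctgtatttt
Fusion pool 2, 856 cells, TRA: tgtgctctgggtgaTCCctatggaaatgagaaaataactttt
Fusion pool 2, 856 cells, TRB: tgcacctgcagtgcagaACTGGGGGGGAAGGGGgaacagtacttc
Fusion pool 2, 115 cells, TRA: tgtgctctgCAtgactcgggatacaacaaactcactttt
Fusion pool 2, 115 cells, TRB: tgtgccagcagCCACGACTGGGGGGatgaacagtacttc
Control pool 1, 6 cells, TRA: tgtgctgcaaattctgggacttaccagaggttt
Control pool 1, 6 cells, TRB: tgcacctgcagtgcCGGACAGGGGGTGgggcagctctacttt
No capital is shown where the germline V and J matches meet, as in the TRA chains of the clonotypes with 61 and 6 cells. No double-positive clonotype was found in more than 1 pool with 1 exception, a clonotype with 43 double-positive cells in fusion pool 2 that was also found in 1 double-positive cell of control pool 2.

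The first comparison asked whether the double-positive state was more frequent when the fusion was induced. Double-positive cells made up 6.57% (95% Wilson interval 6.00 to 7.18) and 28.5% (27.4 to 29.5) of Cd8 cells in the fusion pools, and 0.726% (0.535 to 0.983) and 0.488% (0.344 to 0.691) in the control pools. The lower fusion value was 9.05 times the higher control value, so the groups did not overlap, while the fusion pools differed from each other by more than their counting intervals. The group means were 17.5% ± 15.5 and 0.607% ± 0.168 (SD, n = 2), a difference of 16.9 percentage points with a two-sided exact permutation p of 0.33, the smallest that 2 pools against 2 allow. The share was 2.49, 11.3, 0.162 and 0.111% after thinning to 2000 UMIs per cell, and 3.18, 17.1, 0.177 and 0.110% when 2 UMIs of both genes were required. With each clonotype counted once per class, the shares were 2.19, 4.62, 0.599 and 0.499% and the difference 2.86 percentage points. The difference was 27.9 points without fusion pool 1 and 5.96 points without fusion pool 2. The intervals cover counting error only, and p-values over pools measure the spread between pools of mice.

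**Figure D1:**
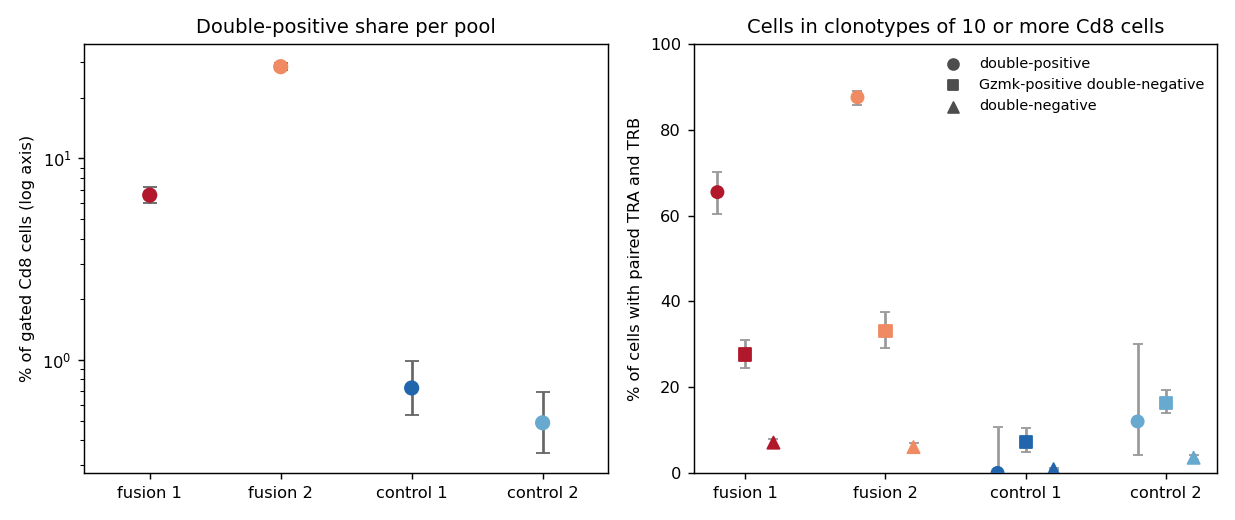
The left panel plots the double-positive share of gated Cd8 cells in percent, on a log axis, for each of the 4 pools, and the right panel the percent of cells with a paired TCR that belong to clonotypes of 10 or more Cd8 cells in double-positive (circles), Gzmk-positive double-negative (squares) and double-negative cells (triangles). Bars are 95% Wilson intervals. Both fusion pools lie above both control pools on the left, and the double-positive cells of the fusion pools reach 65.5% and 87.6% on the right.

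Clonal expansion, read from the TCR libraries that the selection did not use, was high in the double-positive cells of the fusion pools. A paired TRA and TRB was available for 359, 1584, 32 and 25 double-positive cells, which formed 95, 149, 25 and 23 clonotypes. The largest clonotype held 23.96 and 54.04% of the paired double-positive cells in the fusion pools, and 18.8 and 8% in the control pools, where it was 6 and 2 cells. Of paired double-positive cells, 65.5, 87.6, 0 and 12.0% belonged to clonotypes of 10 or more Cd8 cells, counted over all Cd8 cells of the pool, against 7.05, 6.02, 0.858 and 3.52% of double-negative cells. The 0 in control pool 1 is 0 of 32 cells, which allows a share of up to 9.38% by the limit of 3 counts and has a Wilson upper bound of 10.7%. Double-negative cells that carried Gzmk, a granzyme of antigen-experienced cells, measured 27.6, 33.1, 7.16 and 16.4%, between these classes in the fusion pools and above both in the control pools. Pdcd1-only cells measured 24.3, 49.4, 18.0 and 22.4% and Lag3-only cells 32.8, 53.5, 2.92 and 13.4%. Cells with only 1 gating gene thus lay below double-positive cells in the fusion pools and above them in the control pools. The difference between double-positive and double-negative cells was 58.4, 81.5, -0.858 and 8.48 percentage points, with a mean of 36.9 ± 39.5 (SD, n = 4 pools) and a two-sided exact sign-flip permutation p of 0.25, where 0.12 is the smallest possible. The mean ranged from 22.0 to 49.5 points when each pool was left out in turn.

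Most large clonotypes of fusion pool 2 were mainly double-positive, and fewer of those of fusion pool 1 were. The pools held 22, 24, 4 and 14 clonotypes of 10 or more Cd8 cells, of which 10, 23, 0 and 2 contained a double-positive cell and 6, 17, 0 and 0 were double-positive in over 50% of their cells. Of the 1087 Cd8 cells of the largest clonotype of fusion pool 2, 78.8% were double-positive and 16 cells were double-negative. The largest double-positive clonotype of fusion pool 1 was 76.8% double-positive among 112 Cd8 cells. In fusion pool 1, 12 of the 22 large clonotypes had no double-positive cell, among them the third largest of the pool with 75 Cd8 cells.

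**Figure D2:**
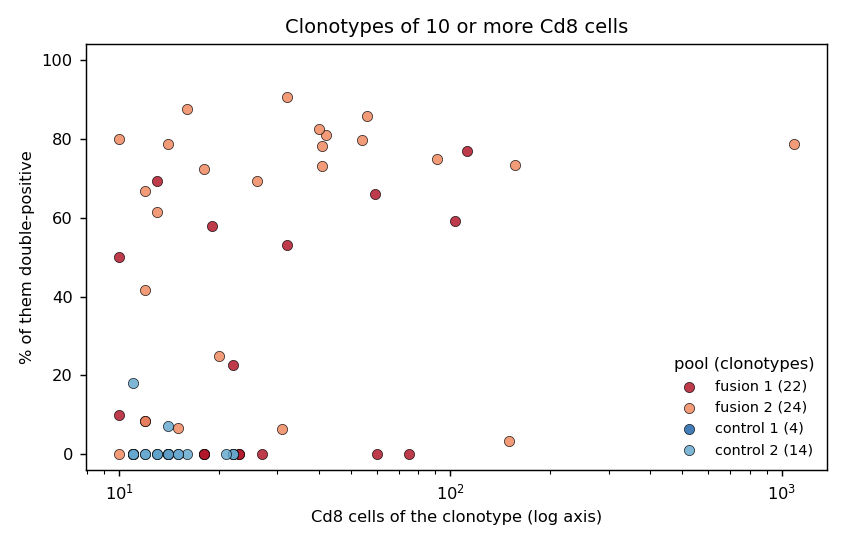
Each point is a clonotype of 10 or more Cd8 cells, placed by its number of Cd8 cells (log axis) and by the percent of them that were double-positive, and coloured by pool. Clonotypes of the control pools stay at or below 18.2%, and those of the fusion pools spread from 0 to 90.6%.

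The second comparison asked what distinguishes double-positive from double-negative Cd8 cells outside the gating genes. Most listed inhibitory receptors, transcription factors of exhaustion and effector function, and cytotoxic granule and death ligand genes were higher in double-positive cells, and most naive and stem-like genes were lower, as were 10 of 18 natural killer (NK) receptor and adaptor genes. UMIs were summed per pool and class and tested with the quasi-likelihood test of edgeR with Benjamini-Hochberg adjustment, which is the source of every adjusted p below. The pool was a block in the comparisons between classes and no block was used between the groups. Fold changes are log2 values ± standard error, over the 4 pools unless fewer are named. This error was derived from the fold change and the F statistic of the same test, so it is no separate measure of spread. Of 12721 genes tested, 1810 (14.2%) were higher and 1942 (15.3%) were lower in double-positive cells at an adjusted p under 0.05, and the median log2 fold change of all tested genes was -0.01. Of these 3752 calls, 2201 changed the same way in every pool, and the list counts below use all calls. Without fusion pool 1 or fusion pool 2 the calls numbered 1761 and 1765.

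Of the inhibitory receptors 12 of 16 tested genes were higher, and 3 were lower (Btla, Lair1, Nt5e), with a median log2 fold change of 2.53. The fold change of Havcr2 was 5.90 ± 0.23, adjusted p = 1.12e-08. Tigit, a receptor for nectin family ligands, measured 894, 794, 459 and 364 CPM against 53.2, 41.0, 20.9 and 23.6, and the classes did not overlap (3.91 ± 0.11, adjusted p = 1.37e-09). Ctla4, which competes with CD28 for its ligands, measured 439.7, 380.5, 260.4 and 186 CPM against 56.2, 64.9, 40.4 and 28.2 (2.45 ± 0.11, adjusted p = 4.16e-08). Entpd1, the ectoenzyme CD39, rose by 3.22 on the log2 scale, from 7.20, 6.64, 3.12 and 7.07 to 87.1, 100.1, 26.3 and 23.8 CPM. The CD200 receptor genes Cd200r1 and Cd200r2 were among the 10 largest rises, at 4.58 ± 0.24 and 7.12 ± 0.37. Cd200r2 rests on 1 and 3 UMIs in the double-positive cells of the control pools, and related Cd200r genes may share reads. Cd160 differed less, at 91.8, 178, 81.9 and 194 CPM against 57.1, 51.2, 47.1 and 66.6 (0.96 ± 0.17, adjusted p = 0.00109).

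Transcription factors linked to exhaustion or effector function were higher in 15 of 21 cases, with a median of 1.35, and Nr4a1 was lower. Tox measured 350.4, 441, 140.5 and 170.4 CPM against 41.0, 50.2, 49.9 and 41.5, so that both fusion pools lay above both control pools within double-positive cells (2.32 ± 0.23, adjusted p = 1.56e-05). Its relative Tox2 was near 0 in double-negative cells, at 0.797, 0.760, 0.399 and 0.108 CPM, and reached 58.1, 56.4, 23.4 and 3.96 CPM in double-positive cells (5.83 ± 0.22, adjusted p = 1.07e-08). Nr4a2, an orphan nuclear receptor induced by TCR signals, rose by 1.95, whereas Nr4a1 of the same family fell by 1.33 on the log2 scale. Of 14 immediate early genes 10 were lower, with a median of -0.61, and Rgs16, a feedback regulator of G protein signaling, rose by 3.5.

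Naive and stem-like genes were lower in 14 of 15 cases, with a median of -1.91. Ccr7, the receptor for entry into lymph nodes, measured 141, 103, 176 and 123 CPM against 700.4, 885, 601 and 491 (-2.70 ± 0.18, adjusted p = 1.10e-06). Il7r, the receptor of the survival cytokine IL-7, measured 59.3, 19.7, 184 and 103 CPM against 210.1, 133, 371 and 289, and its values within the double-positive class were lowest in the fusion pools (-2.18 ± 0.22, adjusted p = 1.97e-05). Tcf7 fell from 347, 346, 420.1 and 339.8 to 103, 56.5, 319 and 234 CPM (-1.75 ± 0.29, adjusted p = 7.45e-04), with the smaller distances in the control pools. Lef1, Satb1 and S1pr1 fell by 2.23, 2.61 and 1.91.

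Cytotoxic granule and death ligand genes were higher in 11 of 15 cases, with a median of 1.33. Gzmb measured 661, 562, 155 and 214 CPM against 81.8, 60.9, 18.2 and 37.9 (2.70 ± 0.12, adjusted p = 4.36e-08), and perforin, Prf1, rose by 1.94. Ctsw, Gzmm and Lamp1 were lower, and Gzmm, a granzyme, fell from 69.4, 74.1, 29.0 and 42.6 to 12.6, 9.18, 14.6 and 23.8 CPM (-2.90 ± 0.24, adjusted p = 4.27e-06). Among cytokines and chemokines, 7 of 14 were higher and 3 lower. Il10, an anti-inflammatory cytokine, measured 47.4, 48.2, 8.78 and 7.92 CPM against 1.51, 1.27, 0.249 and 0.0434, and Csf1 54.0, 38.2, 5.85 and 23.8 CPM against 0.797, 1.10, 0.449 and 0.868. Their fold changes were 4.88 ± 0.26, adjusted p = 1.34e-07, and 5.05 ± 0.31, adjusted p = 5.05e-07. The inflammatory chemokine Ccl3 rose by 2.99 and Ifng by 1.23, whereas Tnf fell by 1.31 on the log2 scale. In the fusion pools Tnf measured 20.8 and 11.8 CPM against 30.0 and 46.0, and in the control pools 43.9 and 43.6 against 30.0 and 43.2.

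NK receptors and adaptors were lower in 10 of 18 cases, with a median of -1.18, and the other 8 did not pass. Klrk1, which encodes the activating receptor NKG2D, measured 39.1, 36.2, 123 and 194 CPM against 71.7, 69.0, 115 and 131 (-0.73 ± 0.20, adjusted p = 0.0171), lower in both fusion pools and higher in both control pools. Of costimulatory and TNF receptor genes 7 of 14 were higher and 3 lower (Cd226, Tnfsf14 and Tnfsf8). Tnfrsf9, the activation-induced receptor 4-1BB, measured 163, 298, 93.6 and 151 CPM against 8.46, 11.5, 7.5 and 9.74 with no overlap (3.97 ± 0.16, adjusted p = 1.75e-08). Homing and adhesion genes moved both ways, 6 higher and 7 lower of 19. Cxcr6, the receptor for CXCL16, rose by 2.87, and Adgrg1, the adhesion receptor GPR56, rose from 2.73, 2.90, 3.84 and 8.20 to 116, 187, 29.3 and 35.7 CPM (4.55 ± 0.46, adjusted p = 1.96e-05). Adgrg1 was also found in 74.2, 82.4, 31.5 and 87.7% of the barcodes without Cd3 that were chosen by B cell, myeloid and progenitor genes. The study reports Adgrg1 expression in mouse stem and progenitor cells, so this is not its rate in all barcodes without Cd3. The part of RNA from other cells in its double-negative level was not tested. Adgrg1, Chn2, Maf, Osgin1 and Tnfrsf9, which the study had singled out on these libraries, were all higher, which is not independent evidence of their direction.

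The largest rise was that of Glp1r, the receptor of glucagon-like peptide 1, at 32.8, 67.7, 14.6 and 19.8 CPM in double-positive and 0.0839, 0.675, 0 and 0.0434 in double-negative cells (7.16 ± 0.40, adjusted p = 1.99e-07). Tmprss6, a membrane serine protease, followed with 20.2, 85.7, 2.93 and 15.8 CPM against 0.168, 0.535, 0 and 0. The control values of Glp1r in double-positive cells are 5 UMIs each. The largest falls were those of Fcgrt, the neonatal Fc receptor, at 2.52, 3.91, 5.85 and 0 CPM against 26.7, 39.1, 14.1 and 19.8 (-3.59 ± 0.23, adjusted p = 6.70e-07), and of Tmem108, at 6.63, 7.68, 11.7 and 15.8 CPM against 63.3, 65.7, 60.6 and 51.3. Cell cycle genes were higher in 16 of 23 cases, with a median of 0.94, and Mki67, the proliferation marker Ki-67, rose by 1.06. Interferon-stimulated genes were higher in 6 and lower in 3 of 22 cases, and glycolysis genes in 4 and 4 of 16. Genes of survival and cytokine receptors were higher in 6 and lower in 10 of 23 cases, and proximal TCR signaling and feedback genes in 10 and 4 of 25.

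**Figure D3:**
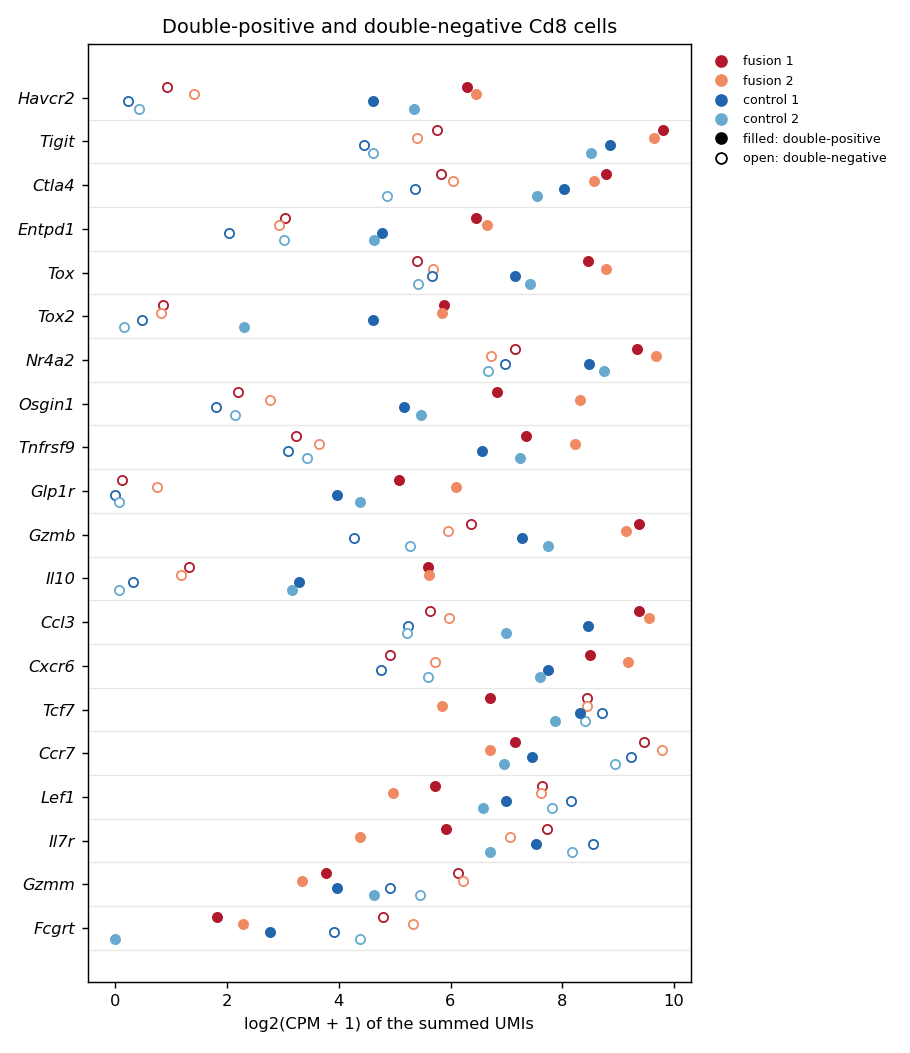
Levels of 20 genes as log2(CPM + 1) of the summed UMIs in double-positive (filled) and double-negative cells (open), 1 point per pool. From Havcr2 to Cxcr6 all filled points lie to the right of the open points of the same pool, and from Tcf7 to Fcgrt they lie to the left.

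Of the markers of other cells, those that passed were lower in double-positive than in double-negative cells except Eomes. Of the 8 B cell markers 4 were testable and Cd79a, Cd79b and Ighm were lower, and the summed list measured 37.9, 50.9, 111 and 87.2 CPM against 106, 125, 166 and 130.5, led by Ighm. Ms4a1 and Pax5 were at 0 in the double-positive cells of every pool. Of the 4 plasma cell markers Jchain was lower, and the list summed to 78.9, 73.7, 70.2 and 63.4 CPM, nearly all of it Xbp1. Of the 10 myeloid markers Lyz2 was lower and the other 9 did not pass, and the list summed to 295, 361, 369 and 234 CPM, led by Cebpb, which T cells also express. Of the 4 NK markers Eomes, which Cd8 T cells also express, was higher and Klrb1c lower, and Ncr1 and Cma1 were at 0 in 3 of the 4 pools. Erythroid genes, led by Hbb-bs, summed to 1.26, 32.03, 20.5 and 3.96 CPM and Cd4 lineage genes to 20.8, 12.4, 35.1 and 23.8 CPM, with no call in either list among 3 genes tested each. The part of free RNA in these differences was not tested.

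To set aside naive cells, the double-positive cells were next compared with the 2872 double-negative cells that carried Gzmk, of which the pools held 943, 639, 405 and 885. Most listed inhibitory receptors, Tox, Tnfrsf9 and Glp1r were higher in double-positive cells in this contrast too, and most listed NK receptors and adaptors and Gzmm were lower. Of 10545 genes tested, 613 (5.81%) were higher and 724 (6.87%) lower. Of these 1337 calls, 921 changed the same way in every pool. Inhibitory receptors were higher in 11 of 16 cases and lower in 2 (Btla and Lair1), with a median of 1.76, against a median of -0.0025 over all genes. Tnfrsf9 measured 10.8, 15.5, 2.90 and 8.79 CPM in the Gzmk-positive double-negative cells (4.05 ± 0.15, adjusted p = 7.74e-08). Havcr2 measured 4.02, 8.50, 1.29 and 0.925 CPM in them, still below every double-positive pool (3.81 ± 0.24, adjusted p = 5.26e-06), and Tigit 156, 141, 66.8 and 60.1 CPM (2.46 ± 0.09, adjusted p = 7.74e-08). The fold changes of Tox, Ikzf2 and Glp1r were 1.92, 2.42 and 5.37. Of the 21 listed transcription factors 11 were higher and 3 lower (Nr4a1, Nr4a3 and Zeb2), with a median of 0.28. Eomes and Tbx21 were among those that did not pass. Cd160, at 133, 84.4, 98.5 and 132 CPM, did not pass (0.14 ± 0.22, adjusted p = 0.787), and neither did Ifng (-0.34 ± 0.12, adjusted p = 0.0995). Granule and death ligand genes were higher in 6 and lower in 3 of 14 cases. Of 23 cell cycle genes 1, Cenpa, was higher, and Mki67 had a fold change of 0.30 ± 0.18, adjusted p = 0.343.

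S1pr5, Gzmm, Ccr2 and Il18rap were among the genes lower than in the Gzmk-positive cells. S1pr5, a sphingosine-1-phosphate receptor for exit into blood, measured 2.84, 0.716, 11.7 and 0 CPM against 33.01, 14.7, 28.4 and 20.4 (-3.82 ± 0.36, adjusted p = 7.03e-05). Gzmm measured 101, 86.5, 133 and 101 CPM in the Gzmk-positive cells and was lower in every double-positive pool (-3.20 ± 0.15, adjusted p = 5.99e-07). Ccr2, a receptor for monocyte-attracting chemokines, and Il18rap, a chain of the IL-18 receptor, fell by 2.38 and 2.47. NK receptors and adaptors were lower in 10 of 15 cases with a median of -1.46, and Klrk1 fell by 1.67. Naive and stem-like genes were lower in 9 of 15 cases, with a median of -0.89. The calls numbered 385 without fusion pool 1 and 487 without fusion pool 2. They numbered 2412 when 2 UMIs of both gating genes were required, a setting that also removed both control pools, which had 10 and 7 such cells. Gzmk itself chose the double-negative cells of this contrast, and its level in them is no result.

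The third comparison was restricted to clonotypes that held at least 1 double-positive and 1 double-negative cell. Only the fusion pools had 20 such cells in each class, 283 and 1243 double-positive against 74 and 195 double-negative cells in 32 and 30 clonotypes. These cells held 1733500 and 8236862 UMIs in the double-positive and 439591 and 1020575 in the double-negative class. Here the double-negative cells were on average the shallower ones, unlike in the classes as a whole. The part of depth in the choice of these double-negative cells was not tested. Of 8340 genes tested, 329 (3.94%) were higher and 452 (5.42%) lower, and the median log2 fold change was close to 0. With cells thinned to 2000 UMIs the calls numbered 309. These classes were not equally composed, since the largest clonotype gave 856 of the 1243 double-positive cells of fusion pool 2 and 16 of its double-negative cells, while a clonotype of 150 Cd8 cells with 5 double-positive cells gave 100 of its 195 double-negative cells. When each clonotype gave the same number of cells to both classes, an alternative chosen after seeing the data, 46 and 62 cells per class remained and 9 genes passed of those tested. Of the 781 genes called with all cells, 579 were testable there, 491 kept their direction and 7 passed.

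The 7 genes that passed in both forms of this comparison were Tnfrsf9 and Bcl2a1d, higher, and Tcf7, Emb, S1pr4, Hist1h2ae and Tuba1b, lower, with values in the fusion pools given here for Tnfrsf9, Tcf7 and Emb. Tnfrsf9 measured 198 and 352 CPM against 18.2 and 37.2, with a fold change of 3.22 ± 0.18, adjusted p = 7.38e-08, and of 1.26, adjusted p = 0.0124, with matched clonotypes. Tcf7 measured 31.7 and 13.5 CPM against 179.7 and 120.5 in the same order, with -2.97 ± 0.18, adjusted p = 1.32e-07, and -1.38, adjusted p = 0.0137, with matched clonotypes. Emb, which encodes the adhesion molecule embigin, measured 31.7 and 16.9 CPM against 207 and 151, with -3.06 ± 0.17, adjusted p = 7.38e-08, and -1.16, adjusted p = 0.0391, with matched clonotypes. Gm26917, higher, and Hist1h2ap, lower, passed with matched clonotypes only. Bcl2a1d, S1pr4, Tuba1b, Gm26917 and the histone genes are named after their values were seen.

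Adgrg1, Osgin1, Tox, Havcr2 and Klrk1 kept their direction with smaller fold changes. Adgrg1 measured 150 and 221 CPM against 15.9 and 21.6, and its fold change went from 3.24 to 1.18 with matched clonotypes (adjusted p = 0.150). The fold change of Osgin1 went from 2.34 to 0.45 (adjusted p = 0.843) and that of Tox from 1.60 to 0.58 (adjusted p = 0.258). Havcr2 went from 2.19 to 1.51 (adjusted p = 0.150) and Klrk1 from -3.33 to -1.07 (adjusted p = 0.0975). Gzma, a granzyme, reversed, from 0.53 with all cells to -0.48 with matched clonotypes and to -1.64 without the largest clonotype of each pool. With all cells, inhibitory receptors were higher in 10 of 13 cases, with Lair1 lower, and NK receptors and adaptors were lower in 5 of 6. Homing and adhesion genes were higher in 2 (Adgrg1 and Cxcr6) and lower in 10 of 15 cases. Immediate early genes were lower in 7 of 12. Ifng measured 225 and 205 CPM against 279.8 and 335, a fall (-0.62 ± 0.13, adjusted p = 0.00609) where the contrast of all double-positive and double-negative cells gave a rise, and with matched clonotypes it had a fold change of -0.59, adjusted p = 0.209. The mast cell and progenitor marker Cpa3 was the one marker of other cells that passed here, at 16.7 and 115 CPM against 18.2 and 28.4 (1.59 ± 0.30, adjusted p = 0.00282), higher in fusion pool 2 only, and its part in the other differences was not tested. The matched form has far fewer cells, and a gene that did not pass in it is not shown to be equal between sister cells.

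The fourth comparison set double-positive cells of the fusion pools against those of the control pools. Cells of the fusion pools had more Tox, Gzmb, Entpd1, Adgrg1 and Il10, and less Tcf7, Id3 and Klrk1. Some of these differences were not particular to double-positive cells. In double-negative cells, by the values above, both fusion pools also had more Gzmb and Il10 and less Klrk1 than both control pools. Tox, Entpd1 and Tcf7 overlapped between the groups there, and Adgrg1 was lower in the fusion pools. Of 8930 genes tested, 58 (0.649%) were higher and 47 (0.526%) lower in the fusion pools, over 41 and 31 control cells. The count was 221 with DESeq2, 16 without control pool 1, 43 without control pool 2, 337 without fusion pool 1, 169 without fusion pool 2 and 5 with cells thinned to 2000 UMIs. Leaving out a pool leaves an arm of 1 pool that is assumed to vary like the other group, and between 5441 and 10387 genes were tested in these 4 settings. Of the 105 genes, 6 passed again without control pool 1 and 28 without control pool 2. After thinning 94 were still testable and 5 passed again. All 94 kept their direction, which is likely in any case because thinning draws from the same UMIs. Without the largest clonotype of each pool 60 genes passed, 54 of them among the 105.

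Inhibitory receptors were higher in 5 of 14 cases, with a median of 1.05 beside 0.0030 over all genes. The fold changes were 1.82 ± 0.25, adjusted p = 0.0239 for Entpd1, 0.96 ± 0.16, adjusted p = 0.0305 for Tigit and 1.37 ± 0.27, adjusted p = 0.0492 for Havcr2. Tox differed by 1.29 ± 0.17, adjusted p = 0.0239, and Batf and Nr4a2 were the other transcription factors that passed of 20. Batf measured 166, 168, 76.1 and 39.6 CPM and Nr4a2 644, 818, 354 and 428 CPM, and the fusion pools lay above the control pools in each of these genes. Gzmb differed by 1.68 ± 0.19, adjusted p = 0.0239 and Gzmk, at 647, 675, 331 and 301 CPM, by 0.99 ± 0.14, adjusted p = 0.0239. Osgin1 did not pass (2.40 ± 0.54, adjusted p = 0.0792), with the fusion pools far apart from each other. The largest rises were those of Cd200r2 (3.42) and of Itih5, at 37.6, 37.8, 2.93 and 3.96 CPM, which is 1 UMI in each control pool.

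Further genes that rose were Cela1, an elastase gene, Il10, Camk2n1, Cdk6, Adgrg1, Gpd2, Perp and Chn2. Cdk6, a cyclin-dependent kinase, measured 104.2, 159.6, 35.1 and 15.8 CPM (2.24 ± 0.36, adjusted p = 0.0239), and Gpd2, the mitochondrial glycerol-3-phosphate dehydrogenase, 64.1, 72.7, 17.6 and 11.9 CPM (2.11 ± 0.32, adjusted p = 0.0239). The difference of Adgrg1 was 2.18 ± 0.32, adjusted p = 0.0239 and that of Chn2, a Rac GTPase-activating protein gene, 1.96 ± 0.32, adjusted p = 0.0246. In double-negative cells Gpd2 measured 12.0, 12.2, 13.1 and 13.4 CPM, with the control pools slightly above the fusion pools.

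Naive and stem-like genes were lower in 3 of 15 cases, among them Tcf7 (-1.90 ± 0.30, adjusted p = 0.0244) and Id3 (-1.91 ± 0.35, adjusted p = 0.0401), with a list median of -1.14. Tcf7 was detected in 23.6, 14.9, 53.7 and 45.2% of double-positive cells, and in 11.3, 6.54, 27.5 and 23.3% after thinning. Klrk1 differed by -2.13 ± 0.23, adjusted p = 0.0239, and NK receptors and adaptors were lower in 4 of 11 cases. Klf4, a quiescence-associated Krüppel-like factor, measured 31.2, 26.7, 140.5 and 71.3 CPM (-2.01 ± 0.30, adjusted p = 0.0239). Jaml, Samd3 and Cpne3 fell by 2.65, 2.24 and 2.32.

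Interferon-stimulated genes had a list median of -1.32, and 2 of 19, Ifit3 and Slfn5, passed. Slfn5 measured 4.42, 1.76, 32.2 and 47.5 CPM (-4.01 ± 0.62, adjusted p = 0.0239) and Ifit3 5.37, 7.03, 23.4 and 51.5 CPM (-2.55 ± 0.49, adjusted p = 0.0455). In double-negative cells Slfn5 measured 9.53, 7.96, 14.3 and 18.9 CPM, in the same order between the groups with a smaller distance. The control values of Ifit3 are 8 and 13 UMIs.

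Markers of other cells moved with the groups as well. The largest fall was that of S100a9, a neutrophil gene, at 1.26, 0.586, 26.3 and 11.9 CPM (-4.78 ± 0.73, adjusted p = 0.0239), and the fusion pools were also below the control pools in double-negative cells, at 0.629, 0.506, 17.6 and 4.58 CPM. Of the 10 myeloid markers 4 were testable and S100a8 and S100a9 were lower in the fusion pools, with the summed list as given above. The 3 gamma-delta and NKT markers summed to 4.10, 8.72, 49.7 and 19.8 CPM, with Trdc the most abundant in 3 of the pools and lower in the fusion pools. The 5 progenitor and mast cell markers, led by Cpa3, summed to 17.04 and 119 CPM in the fusion pools and were all at 0 in the control pools. The summed B cell list was higher in the control pools, as given above. Of its 8 genes only Ighm was testable between the groups, and it did not pass (-1.21 ± 0.26, adjusted p = 0.0691). The part of free RNA, of other cells in a droplet and of the few control cells in the group difference was not tested.

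**Figure D4:**
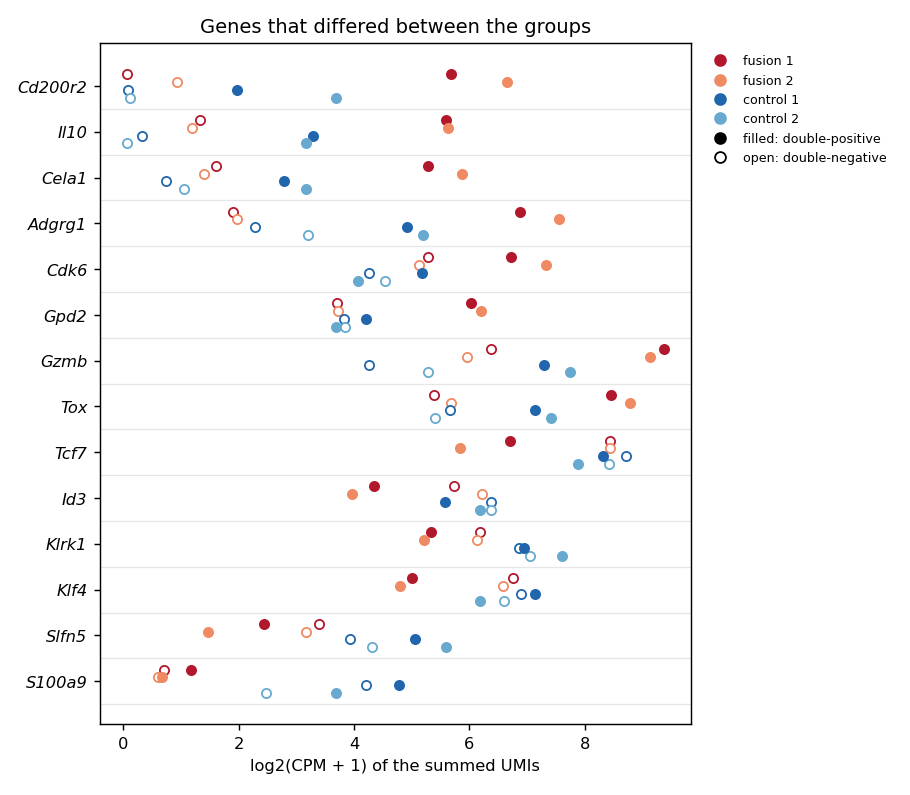
Levels of 14 genes as log2(CPM + 1) of the summed UMIs, 1 point per pool, in double-positive (filled) and double-negative cells (open) of the fusion pools (red and orange) and control pools (blues). The filled fusion points of S100a9 and Slfn5 lie left of the filled control points and their open points keep that order, whereas the open points of Gpd2 lie together. The open points of Gzmb, Il10 and Klrk1 also keep the group order of their filled points, and those of Adgrg1 reverse it.

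Within the fusion pools, the expression of double-positive cells differed with the size of their clonotype. Among cells whose clonotype held a single Cd8 cell (45 and 79 cells of fusion pools 1 and 2) Tcf7 was found in 48.9 and 43.0%, and among cells of clonotypes of 10 or more (235 and 1387) in 8.94 and 5.55%. Klrk1 went from 24.4 and 22.8% to 3.83 and 5.34%. Osgin1 went the other way, from 26.7 and 30.4% to 40.0 and 75.9%, as did Adgrg1, from 24.4 and 31.7% to 52.3 and 70.4%. Gzmb was found in 44.4 and 62.0% and in 85.5 and 85.1%. Havcr2 rose with size in fusion pool 1, from 22.2% over 30.4% to 43.0%, but in fusion pool 2 it was highest in clonotypes of 2 to 9 cells, at 24.1, 60.2 and 37.1%. Of the 1387 cells in the class of 10 or more in fusion pool 2, 856 belonged to 1 clonotype, with Havcr2 in 28.6%, Osgin1 in 89.0% and Adgrg1 in 74.8% of its cells. Clonotypes of 2 to 9 cells in that pool had Adgrg1 in 64.4% of cells. Median totals were lowest in the largest clonotypes, at 5573 and 6107 UMIs against 6264 and 6820 for single cells. These shares describe cells of 2 pools and were not tested.

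**Figure D5:**
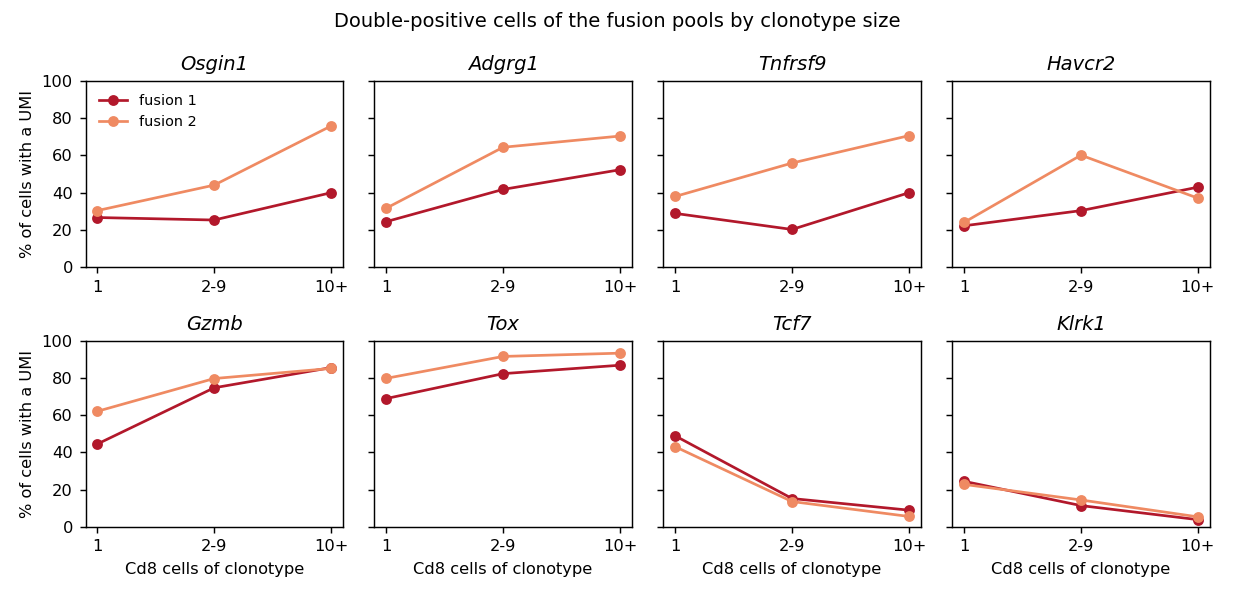
The percent of double-positive cells with a UMI of 8 genes is plotted against the size of their clonotype (1, 2 to 9, 10 or more Cd8 cells) for the 2 fusion pools. Tcf7 and Klrk1 fall with clonotype size in both pools, and Osgin1, Adgrg1 and Gzmb are highest in the largest clonotypes. In fusion pool 2, 856 of the 1387 cells of that class belong to 1 clonotype.

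Expanded clonotypes differed from each other widely in the share of cells with Gzma and Osgin1. Tigit was found in nearly all cells of each, so that differences in its level cannot show in these shares. Over the 5 and 14 clonotypes with 10 or more double-positive cells in the fusion pools, Tigit was found in 94.9 to 100% and 90.9 to 100% of the cells, and Tox in 81.8 to 94.1% and 69.2 to 100%. Gzma ranged from 0 to 79.1% and from 7.35 to 81.0%. In fusion pool 1 the clonotypes with 86 and 61 cells had Gzma in 79.1 and 3.28% of cells. Osgin1 ranged from 9.09 to 61.6% and from 13.3 to 89.0%, and its highest value was that of the clonotype with 856 cells, which had Havcr2 in only 28.6%. Tcf7 stayed low, at 1.64 to 9.09% and 0 to 18.2%.

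Tcf7 and Havcr2, which mark progenitor-like and terminal exhausted cells in other settings, were also counted cell by cell. Tcf7 without Havcr2 was found in 18.0, 10.5, 48.8 and 38.7% of double-positive cells, Havcr2 without Tcf7 in 29.7, 33.3, 9.76 and 16.1%, and both in 5.63, 4.38, 4.88 and 6.45%. The remaining cells had a UMI of neither gene. Cells with Tcf7 alone were deeper, with median totals of 9360, 10779, 9115 and 8754 UMIs against 6067, 6654, 4034 and 5298 for Havcr2 alone, and the part of depth in this split was not tested.

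At the edge of the gate, double-positive cells with 1 UMI of each gating gene had less Tcf7 than the cells just outside it in each pool, and more Tox in 3 of the 4 pools. Among 57 such cells of fusion pool 1, Tox was found in 68.4% and Tcf7 in 43.9%, against 52.0 and 66.0% of 150 cells with 1 UMI of Pdcd1 and none of Lag3, and 41.9 and 72.7% of 308 cells with 1 of Lag3 and none of Pdcd1. In control pool 1 Tox went the other way, at 31.3% of 16 cells with 1 UMI of each against 47.1 and 34.1% of 68 and 126 cells just outside. In fusion pool 2 Osgin1 was found in 53.3% of 120 cells with 1 UMI of each, and in 24.03 and 15.4% of 154 and 402 cells just outside. The median UMI counts of Pdcd1 and Lag3 per double-positive cell were 2 and 3 in fusion pool 1, 2 and 4 in fusion pool 2, 1 and 1 in control pool 1 and 1 and 2 in control pool 2, so control cells sat closer to this edge.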

How the data were processed

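Gene expression and TCR libraries of 4 bone marrow pools were analysed. The authors deposited raw UMI counts per gene and barcode and TCR contigs with their UMI counts, made per the labels with Cell Ranger 6.1.2 on GRCm38. Ambient RNA was not removed and no cell annotation was used, so the cells were gated on raw counts. Pools of 2 mice were the replicates. Counts were summed per pool and class (at least 20 cells), filtered with filterByExpr, scaled by TMM and tested with edgeR 4.0.16 (R 4.3.3, Benjamini-Hochberg adjusted p under 0.05), with DESeq2 1.42.0 as an alternative. The pool was a block between classes and not between groups. Shares have Wilson intervals and were compared by exact permutation over pools (scipy 1.17.1). Doublets were scored with Scrublet in scanpy 1.11.5. Its automatic threshold marked at most 4.22% of a library and 0% in 2 of them, so the highest 5% were removed in an alternative. Named genes are the 10 with the largest fold change in each direction among those called, changed the same way in every pool and found in at least 10% of the cells of the higher class, without receptor segments, unnamed gene models and mitochondrial or ribosomal genes, together with members of the lists. Members, lists and tests were chosen with earlier results of these data known, and 1 alternative, clonotypes matched in cell number, was added after seeing these tests. Thinning drew 2000 UMIs per cell and left out shallower cells, keeping 435, 2017, 40 and 30 double-positive cells. The scripts were tested on simulated data.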

Additional observations from a re-analysis of the deposited data

Results flagged for a closer look

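4 genes called between double-positive and double-negative Cd8 cells are given here. They pointed one way in both fusion pools and the other way in both control pools, and the difference between the groups was not tested. They are not the only genes with unequal directions, since 2201 of the 3752 called genes changed the same way in every pool. Slfn5, which was not called, also had opposite directions in the fusion and control pools. Klrk1, the gene of the activating receptor NKG2D, measured 39.1 and 36.2 CPM in the double-positive cells of fusion pools 1 and 2, below the 71.7 and 69.0 CPM of double-negative cells. In control pools 1 and 2 it measured 123 and 194 CPM in double-positive cells, above the 115 and 131 CPM of double-negative cells. Tnf, an inflammatory cytokine gene, measured 20.8 and 11.8 CPM in the double-positive cells of the fusion pools against 30.0 and 46.0 CPM in double-negative cells. In the control pools Tnf measured 43.9 and 43.6 CPM against 30.0 and 43.2 CPM, and the second of these pairs is nearly equal. Trdc, the constant gene of the delta TCR chain, measured 3.16 and 1.63 CPM against 7.18 and 5.74 CPM in the fusion pools and 23.4 and 19.8 CPM against 16.3 and 11.2 CPM in the control pools. Jchain, the immunoglobulin joining chain of plasma cells, differed little in the fusion pools, at 1.26 and 0.456 CPM against 1.24 and 0.366 CPM, and was lower in double-positive cells of the control pools, at 5.85 and 3.96 CPM against 41.4 and 64.4 CPM. The control sums of double-positive cells rest on 41 and 31 cells, where 1 UMI is 2.93 and 3.96 CPM.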

How the results depend on the processing

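The double-positive share kept its direction under every setting tried. Its group difference, 16.9 percentage points as reported, was 16.1 without the highest doublet scores, 17.1 with stricter limits on genes and mitochondrial UMIs, 16.5 with Cd8a or Cd8b1, 10.0 with 2 UMIs of both genes, 6.77 after thinning, 2.86 with each clonotype counted once and 5.96 to 27.9 with 1 pool left out. The clonality difference, a mean of 36.9 points, was 60.1 for clonotypes of 2 or more cells, 29.1 for 50 or more, and 22.0 to 49.5 with 1 pool left out. Replicate numbers were only shared between groups: same-numbered pools deviated together with correlations of 0.0849 in double-positive and 0.273 in double-negative cells over 2 pairs. With the replicate block the share difference was 16.9 points and the genes between groups numbered 281 in place of 105. The double-positive against double-negative count, 3752, ranged from 1761 to 4320 with 1 pool left out, and the count against Gzmk-positive cells, 1337, from 385 to 1542, and was 2412 with 2 UMIs of both genes, where both control pools dropped out as well. The count between groups was 221 with DESeq2, 523 with no filter on low counts, 193 without the highest doublet scores, 5 after thinning, 60 without the largest clonotype of each pool and 16 to 337 with 1 pool left out, where the lone pool is assumed to vary like the other group. The count within clonotypes, 781, was 232 with DESeq2, 340 with no replicate block (pool), 109 with 2 UMIs of both genes, 309 after thinning, 346 without the largest clonotype and 9 with clonotypes matched in cell number, an alternative chosen after seeing the data. There Gzma reversed, from a log2 fold change of 0.53 to -1.64 without the largest clonotype (edgeR adjusted p = 4.67e-05) and -0.48 with matched clonotypes (edgeR adjusted p = 0.153). Of 1429 repeats for 118 gene results, 1272 kept their side of the threshold, 145 lost it, 10 gained it and 2, those of Gzma, reversed. 2 UMIs of both genes were not run between groups (10 and 7 control cells), nor leaving out a pool within clonotypes (no residual degrees of freedom). The causes were not tested. The 41 and 31 control cells limit every statement about control double-positive cells, and the design of 2 pools against 2 cannot give an exact p below 0.33.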

Other observations

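The mast cell protease gene Cpa3 was found in T cells of the fusion pools in both classes. It measured 14.5 and 99.5 CPM in double-positive cells of fusion pools 1 and 2 and 45.1 and 32.7 CPM in double-negative cells, while no UMI of it was found in the double-positive cells of the control pools and double-negative cells measured 0.0249 and 0.456 CPM there. At 341746 and 252382 summed UMIs, a count of 0 in the control double-positive cells allows up to 8.78 and 11.9 CPM. Whether it comes from the T cells or from RNA of other cells was not tested.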
